A study of Danio rerio with 30 samples.

Results

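The passage from the late blastula to the gastrula was followed in total RNA of wild-type zebrafish embryos (Danio rerio). Ribosomal RNA had been depleted with Ribo-Zero, a kit that removes it from total RNA without selecting a poly(A) tail, so that RNAs without a tail are counted too. The 3 libraries of 6, 7 and 8 h post-fertilization (hpf), gastrula libraries below, were set against the 2 libraries of 4 and 5 hpf, blastula libraries below, out of 30 libraries in the series. All 5 came from untreated embryos collected in sets of 25, and each hour has 1 library. The spread within a group therefore holds the change between its hours as well as the error of a library, and p-values measure only this spread. The members described here are the 15642 of 35117 listed genes whose mean level over the 5 libraries was at least 1 TPM, the transcripts of a gene per 1000000 transcripts. Just inside this limit lay arhgap42b, with 0.3, 0.14 and 0.01 TPM, against 2.68 and 1.87 TPM, and just outside it hmcn1, an extracellular matrix gene, with 0.86, 1.23 and 1.86 TPM at 6, 7 and 8 hpf, against 0.53 and 0.51 TPM at 4 and 5 hpf. Libraries selected for poly(A) tails serve for comparison below, those of the same hours from untreated embryos and those of 4 to 7.5 hpf from embryos given alpha-amanitin.

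By the late blastula the zebrafish genome has been activated, and the embryo holds a mixture of RNA laid down in the egg and RNA made by its own nuclei. The cells are then spreading over the yolk, a flat epithelium called the enveloping layer covers them, and the nuclei at the yolk surface form the yolk syncytial layer. Gastrulation begins with the internalization of mesoderm and endoderm at the margin, while BMP, Nodal, FGF and Wnt signals set up the body axes. Maternal RNAs are cleared over the same hours, in part through the microRNA miR-430, an early zygotic product transcribed from a cluster of many copies. A level in these whole embryos cannot tell fewer cells of a type from less RNA per cell.

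Differences are given as log2(TPM + 0.1) in the gastrula libraries minus that in the blastula libraries, with the standard error from limma after the ± sign, and a gene is called higher or lower at an adjusted p under 0.05. Of the 15642 genes, 1855 (11.9%) were called higher and 4569 (29.2%) lower in the gastrula libraries. In all 8552 genes had an unadjusted p under 0.05. The median difference over all genes was -0.52, with quartiles of -1.60 and 0.65. In every called gene the groups did not overlap, which was also so in 23.6% of all tested genes on the higher side and 49.8% on the lower side. TPM values are shares of a library, so this balance depends on the scaling. With median-of-ratios scaling the median moved to 0.015 and the calls split into 2932 higher (18.7%) and 2544 lower (16.3%), so that 53.5% of calls were higher, against 28.9% without scaling. All differences below are on the TPM scale and are read against the median of -0.52. Counts of calls in every list below are read against the 11.9% higher and 29.2% lower among all genes.

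Every call rested on 1 library an hour. Without the 4 hpf library no gene passed, with 1534 higher and 3100 lower at an unadjusted p under 0.05, and without the 7 hpf library 0 genes were higher and 9 lower, with 1634 and 4102 at an unadjusted p under 0.05. Leaving out 5, 6 or 8 hpf left 943 to 2410 genes higher and 2871 to 5167 lower. Of the 1266 genes that passed the filter with a blastula mean under 1 TPM, 630 were called higher, and of 1177 with a gastrula mean under 1 TPM, 672 were called lower. Such genes could hardly have been called the other way, and members of the lists below are among them.

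The hourly course was uneven. From 5 to 6 hpf 4109 genes fell at least 2-fold and 1515 rose at least 2-fold, while from 7 to 8 hpf 880 fell and 925 rose. The step from 4 to 5 hpf was more even, with 2182 genes up and 2114 down, and from 6 to 7 hpf 1324 went up and 1835 down. The median log2 step was -0.275, -0.37, -0.009 and 0.079 in the order of the hours. Steps and peak hours are on the TPM scale and were not repeated with scaling. Median-of-ratios factors were 1.44, 1.16, 0.91, 0.85 and 0.91 from 4 to 8 hpf. The balance of rises and falls, and of peak hours, thus depends on the scaling. Across genes, the correlation of log2 levels was 0.898 between 4 and 5 hpf, 0.868 between 5 and 6 hpf, 0.915 between 6 and 7 hpf and 0.94 between 7 and 8 hpf. The highest of the 5 levels lay at 4 hpf in 8606 genes (55.0%), at 8 hpf in 3836 (24.5%) and at 5, 6 or 7 hpf in 920, 891 and 1389 genes. Among the 1855 genes called higher, 1313 peaked at 8 hpf, 467 at 7 hpf and 75 at 6 hpf, and 1079 rose at each hourly step. Of the 4569 called lower, 4462 peaked at 4 hpf and 2050 fell at each step.

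**Figure D1:**
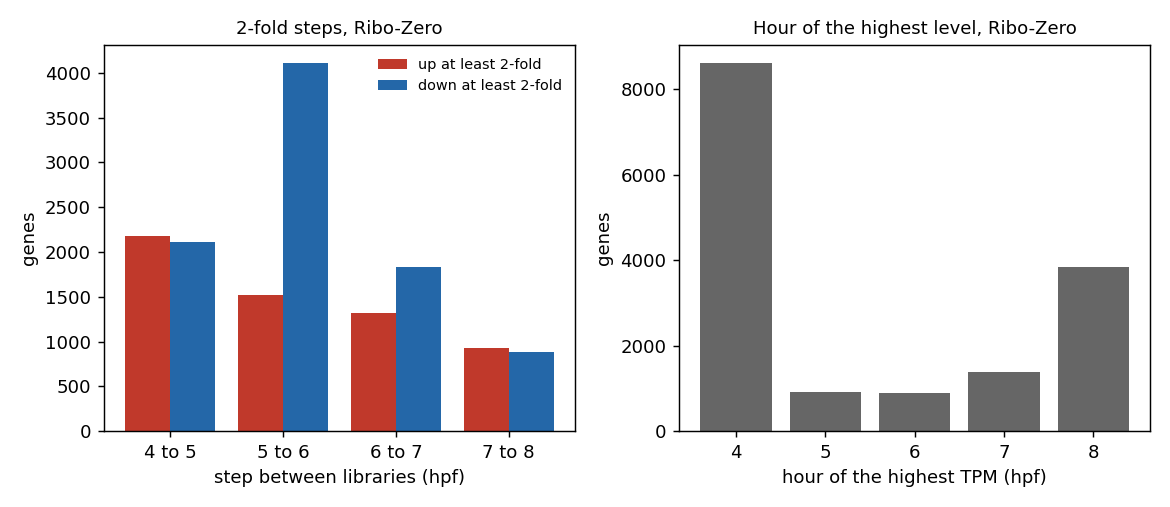
Left, number of genes that went up (red) or down (blue) at least 2-fold on TPM + 0.1 between neighbouring hours of the Ribo-Zero profile, among the 15642 tested genes. Right, number of genes by the hour of their highest TPM. The largest bar on the left is the 4109 genes that fell from 5 to 6 hpf, and most genes were highest at 4 or 8 hpf.

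The libraries listed 14022 to 15024 genes at 1 TPM or more from 0 to 8 hpf. Loci named Metazoa_SRP, which encode the RNA of the signal recognition particle, held 22.3% to 38.5% of the TPM of a library, and leaving them out with the CT583728 loci gave 2011 genes higher and 4157 lower. The 23 CT583728 loci held 2.37% of the TPM at 7 hpf and 3.15% at 0 hpf, against at most 0.0247% in the other libraries, so the 7 hpf library stood apart in these loci. The 13 mitochondrially encoded genes named with the prefix mt- held 1.15% to 1.87%. The 24 AC024175 loci, not counted among these, held 3.32% to 6.55%. Marker genes were checked against the stage. Those of the enveloping layer, mesoderm and endoderm were present in the gastrula libraries (krt4 438 to 1103 TPM, msgn1 7.15 to 63.6 TPM, sox17 1.53 to 11.6 TPM), whereas 3 of the 4 blood and vessel markers were near 0 (tal1 at most 0.23 TPM, gata1a and etv2 at most 0.15 TPM). The fourth, lmo2, was called higher, with 3.41, 3.82 and 2.05 TPM, against 0.06 and 0.42 TPM. Not all markers were clear. The mesoderm marker tbx16 fell through the gastrula libraries, with 214.14, 157.4 and 109.48 TPM at 6, 7 and 8 hpf. It had 119.95 TPM at 5 hpf and less at 4 hpf, so its groups overlapped. The yolk syncytial marker apoa4b.1 had at most 0.59 TPM and was under the filter. Of the ventral ectoderm markers, gata2a was above both blastula libraries at each gastrula hour, while tp63, foxi1 and tfap2a overlapped between the groups. Levels of tp63 were 1.17, 3.03 and 10.84 TPM, against 2.49 and 1.45 TPM.

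Genes were then split by their level before the genome is activated, taken from the Ribo-Zero libraries of 0, 1 and 2 hpf, which the contrast does not use. Of the 2668 genes with a mean under 1 TPM at 0, 1 and 2 hpf, 1013 (38.0%) were called higher and 114 (4.27%) lower, with a median difference of 1.94. They were tested only because they averaged at least 1 TPM over 4 to 8 hpf. The filter thus left out early-low genes that stayed low, and it sets part of this shift. Among the 10832 maternal genes, with a mean of at least 5 TPM at 0 and 1 hpf, 571 (5.27%) were called higher and 4317 (39.9%) lower, and the median was -0.94. The 2142 genes in between had 271 calls higher and 138 lower, with a median of 0.10. Genes under 1 TPM early held 3.31%, 4.7% and 5.3% of the TPM at 6, 7 and 8 hpf, against 1.39% and 2.41% at 4 and 5 hpf. Genes of the maternal class held 92.1% at 8 hpf, against 97.4% at 4 hpf. This share does not separate RNA left from the egg from RNA that the embryo made from the same genes. Nor is it a share of mRNA alone. The Metazoa_SRP loci held 34.0% of the TPM at 4 hpf and 30.7% at 8 hpf, most of it inside this class. After median-of-ratios scaling the counts were 1199 higher and 62 lower for genes under 1 TPM early, and 1287 higher and 2436 lower for maternal genes.

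**Figure D2:**
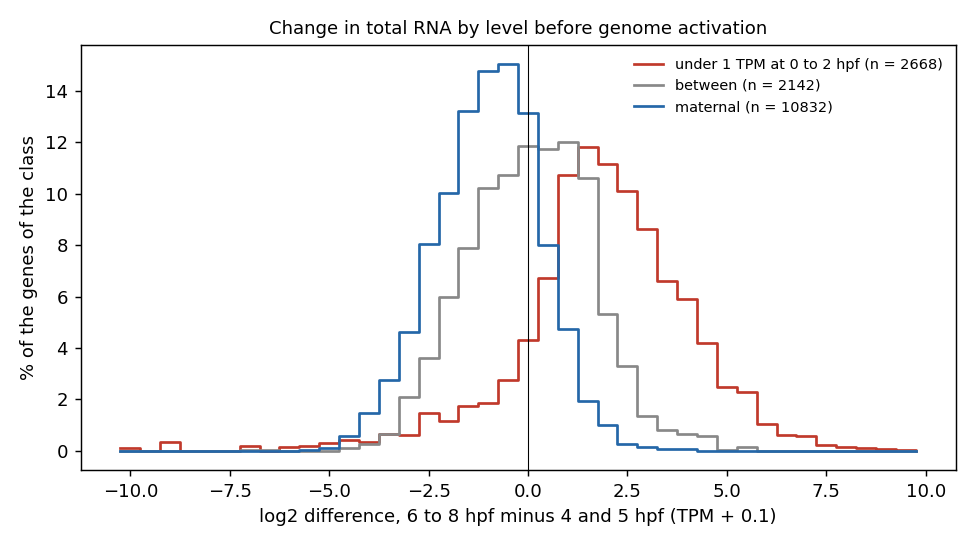
Distribution of the log2 difference between the gastrula and the blastula libraries (horizontal axis, in equal bins) as the percentage of the genes of each class (vertical axis). Genes under 1 TPM at 0 to 2 hpf (red, n = 2668) lie mostly to the right of 0 with a median of 1.94, and maternal genes (blue, n = 10832) mostly to the left with a median of -0.94.

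The largest difference was that of si:ch211-217k17.9, an uncharacterized gene, with 30.3, 140.0 and 268 TPM at 6, 7 and 8 hpf, against 0 and 0.06 TPM at 4 and 5 hpf (log2 difference 9.69 ± 0.88, adjusted p = 0.0119). Next came fetub, which encodes the secreted protease inhibitor fetuin B, with 28.1, 164 and 314 TPM, against 0 and 0.31 TPM (log2 difference 9.13 ± 1.07, adjusted p = 0.015). The third, si:ch211-217k17.8, had 16.9, 61.5 and 81.9 TPM in the gastrula libraries and was listed at 0 at both 4 and 5 hpf. Also listed at 0 in both blastula libraries was pla2g12b, a phospholipase A2 family gene, with 9.26, 57.2 and 108 TPM at 6, 7 and 8 hpf. The anterior gradient gene agr1 was listed at 0 there too and had 5.16, 35.3 and 55.8 TPM in the gastrula libraries. For these 3 genes the fitted difference depends on the pseudocount and is no fold. Differences of other genes near 0 in the blastula libraries, and so their rank, depend on it too. That of apoa1a, given below, was 8.53 with a pseudocount of 0.1, 9.52 with 0.01 and 6.04 with 1. Levels of hkdc1, a hexokinase domain gene, were 22.2, 71.5 and 93.8 TPM, against 0.01 and 0.24 TPM. The symbol afp4, of an antifreeze-like protein, stands for 2 genes that both rose, and the one of this rank (ENSDARG00000095863) had 142, 359 and 417 TPM, against 0 and 18.5 TPM. All of the 12 genes with the largest rise went up at each hour from 6 to 8 hpf and were under 1 TPM at 4 hpf.

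Keratins of the enveloping layer, the first epithelium of the embryo, rose without exception among those tested. Of 19 keratin genes in the files, 11 passed the filter and all 11 were called higher, with a median difference of 6.20. Of all genes, 11.9% were called higher. The other 8 keratin genes were under the filter. Keratins near 0 in the blastula libraries, such as the krt17 gene given below, passed it only through their gastrula levels. Those could hardly have been called lower. In krt4, a marker of the enveloping layer, the level was 438, 862 and 1103 TPM at 6, 7 and 8 hpf, against 3.09 and 107 TPM at 4 and 5 hpf (log2 difference 5.34 ± 1.31, adjusted p = 0.0225). The products of krt8 and krt18 assemble into the filaments of simple epithelia. Of this pair krt8 had 695, 1344 and 1480.4 TPM, against 9.05 and 190.2 TPM. The partner krt18 had 605, 1029.8 and 1178 TPM, against 22.8 and 249.6 TPM. Levels in all 3 gastrula libraries were above both blastula libraries, and the step from 4 to 5 hpf was itself at least 10-fold in these 3 genes. The type I keratin cyt1 was listed at 0 at 4 hpf and had 4.96 TPM at 5 hpf, with 68.9, 172 and 246 TPM in the gastrula libraries. Its relative cyt1l had 33.3, 98.2 and 149 TPM, against 0.11 and 1.26 TPM. The type II keratin krt5 had 176, 395 and 591 TPM, against 0.37 and 21.4 TPM. A pair of genes carries the symbol krt17, and the more abundant of them (ENSDARG00000094041) had 19.6, 76 and 121 TPM, against 0 and 0.54 TPM. Summed over all keratin genes, the share of the library was 0.24%, 0.474% and 0.572% at 6, 7 and 8 hpf, against 0.00376% and 0.0619% at 4 and 5 hpf.

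The wider list of enveloping layer and epidermal genes, which holds most of these keratins, had 23 of 37 tested genes (47 in the files) called higher and 2 lower, with a median of 3.58, where 11.9% of all genes were called higher. Plakins, which tie keratin to cell junctions, were among the genes that rose. Envoplakin (evpla) had 63.6, 109 and 109 TPM, against 0.03 and 9.94 TPM. Desmoplakin (dspa) had 44.8, 96.8 and 134 TPM, against 0.14 and 5.9 TPM. Periplakin (ppl), with a maternal supply of 7.14 TPM at 0 hpf, had 75.5, 160.3 and 221 TPM, against 6.63 and 12.7 TPM. Annexins, which bind membranes in a calcium-dependent way, rose as well. The gene anxa1a had 151, 332 and 329.6 TPM, against 1.05 and 34.7 TPM. Its relative anxa1c had 5.75, 24.4 and 32.1 TPM in the gastrula libraries and was listed at 0 at 4 and 5 hpf. The tight junction gene cldne had 95.8, 133 and 101 TPM, against 4.94 and 37.5 TPM (log2 difference 2.98 ± 0.76, adjusted p = 0.0244). Transcription factors of the list differed. The Krüppel-like factor gene klf4 rose, with 1.5, 3.32 and 3.01 TPM, against 0.16 and 0.07 TPM. The Grainyhead gene grhl1 had 63.5, 63.9 and 69.1 TPM, against 6.96 and 42.4 TPM (adjusted p = 0.0577). For its relative grhl3 the level was 207, 155 and 84.1 TPM, against 115 and 246 TPM, and the groups overlapped (adjusted p = 0.637). For klf17 it was 189, 183 and 137 TPM, against 211 and 189.6 TPM, without a call (adjusted p = 0.382). The genes called lower were tjp3, of a tight junction protein, with 129.8, 103 and 74.6 TPM, against 188 and 169.9 TPM, and klf2a, a relative of klf4. Levels of klf2a were 16, 9.92 and 25.5 TPM, against 43.7 and 56.7 TPM. Neither was called after median-of-ratios scaling.

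The yolk syncytial layer, which exports yolk lipid to the embryo in lipoproteins, was represented by a list of 29 genes. Of these 18 passed the filter, 13 were called higher and none lower, with a median of 4.42. Of all genes, 11.9% were called higher. Members near 0 in the blastula libraries, such as apoa1a and apobb.1, passed the filter only through their gastrula levels and could hardly have been called lower. The genes apoa1a and apoa1b encode the main protein of high-density lipoprotein. Levels of apoa1a were 13.4, 109 and 232 TPM at 6, 7 and 8 hpf, against 0.05 and 0.14 TPM at 4 and 5 hpf (log2 difference 8.53 ± 1.12, adjusted p = 0.015). Those of apoa1b were 4.28, 91.6 and 262 TPM, against 0.13 and 0 TPM. Apolipoprotein B (apobb.1) had 1.15, 7.7 and 26.2 TPM, against 0.01 and 0.07 TPM. The transfer protein that loads lipid onto it, mtp, was listed at 0 at 4 hpf and had 17.5 TPM at 5 hpf, with 115, 214 and 201 TPM in the gastrula libraries. More abundant were apoeb, of apolipoprotein E, and apoc1. The level of apoeb was 1134, 2207 and 2352 TPM, against 97.9 and 354 TPM. That of apoc1 was 347, 801 and 882 TPM, against 6.23 and 27.7 TPM. Both rose at every hour. The regulator hnf4a, known from liver, was highest at 7 hpf, with 52.4, 74.5 and 47 TPM, against 0.9 and 14.9 TPM. The GATA gene gata6, which acts in endoderm and in the yolk syncytial layer, had 77, 112 and 119 TPM, against 0.57 and 17 TPM. The regulators that switch this layer on took another course. The homeobox gene mxtx2, which starts the yolk syncytial programme, had 41.5, 7 and 1.98 TPM, against 65.3 and 104 TPM, below the blastula libraries at each hour but with an adjusted p of 0.0517. Its relative mxtx1 had 33.8, 24.3 and 10.4 TPM, against 3.41 and 21.9 TPM (adjusted p = 0.25). The summed share of the list was 0.19%, 0.377% and 0.426% of the TPM at 6, 7 and 8 hpf, against 0.0194% and 0.0584% at 4 and 5 hpf.

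Among factors of mesendoderm and axial mesoderm, 15 of 31 tested genes (33 in the files) were called higher and 1 lower, with a median of 2.26. The T-box gene ta, the zebrafish Brachyury needed for the notochord and tail, had 241, 318 and 191 TPM at 6, 7 and 8 hpf, against 1.67 and 26.9 TPM at 4 and 5 hpf (log2 difference 5.15 ± 1.01, adjusted p = 0.016). Its highest level was at 7 hpf, and all 3 gastrula libraries were above both blastula libraries. In the endoderm, sox32, the gene without which endoderm does not form in zebrafish, had 27.6, 49.7 and 32.5 TPM, against 0.36 and 3.07 TPM (log2 difference 4.88 ± 0.79, adjusted p = 0.015). Its target sox17 had 1.53, 7.62 and 11.6 TPM, against 0.29 and 0.33 TPM. The GATA factor gata5, which acts upstream in the same cells, had 24.6, 27.8 and 29.7 TPM, against 0.51 and 8.51 TPM. All 3 endoderm genes rose. Of genes of the dorsal organizer, chd, which encodes the BMP antagonist Chordin, had 49, 78.5 and 119 TPM, against 2.81 and 28.4 TPM. The forkhead gene foxa2 had 5.22, 22.1 and 39.4 TPM, against 0.31 and 3.14 TPM. Other organizer genes were already high at 5 hpf. The homeobox gene gsc had 48.7, 39.9 and 33.5 TPM, against 9.32 and 28.2 TPM (adjusted p = 0.0636, under the threshold after median-of-ratios scaling). For noto, which specifies the notochord, the groups overlapped, with 45.4, 49.8 and 44.8 TPM, against 11.6 and 66.3 TPM (adjusted p = 0.372). The posterior homeobox gene cdx4, among the 12 largest rises, had 21.9, 113 and 215 TPM, against 0.46 and 0.13 TPM. The T-box gene tbx6l had 5.68, 26.4 and 47.8 TPM, against 0.22 and 0.58 TPM.

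Genes of the Nodal pathway, which induces mesendoderm, were not called higher. The Nodal ligand ndr1 had 12.8, 3.16 and 1.5 TPM, against 8.9 and 14.4 TPM (adjusted p = 0.185). The second ligand, ndr2, had 16.1, 13.4 and 17.3 TPM, against 1.89 and 10.3 TPM (adjusted p = 0.07). Levels of the co-receptor tdgf1 were 89, 71.8 and 54.6 TPM, against 45 and 96 TPM (adjusted p = 0.84). The groups overlapped in tdgf1 and in foxh1, the gene of a Nodal effector, which had 77.8, 87.3 and 63.9 TPM, against 69.6 and 78.9 TPM (adjusted p = 0.92). The Nodal inhibitor lft1 had 23.4, 28.3 and 19.5 TPM, against 2.59 and 14.4 TPM (adjusted p = 0.0577, under the threshold after median-of-ratios scaling). The homeobox gene mixl1, a Nodal target, peaked at 6 hpf with 127, 39.2 and 8.98 TPM, against 8.29 and 49 TPM, and its groups overlapped (adjusted p = 0.576). The only mesendoderm member called lower was eomesa, a maternal T-box factor that works with Nodal, with 16.7, 5.66 and 3.15 TPM, against 115 and 75.5 TPM (log2 difference -3.78 ± 0.67, adjusted p = 0.015).

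**Figure D3:**
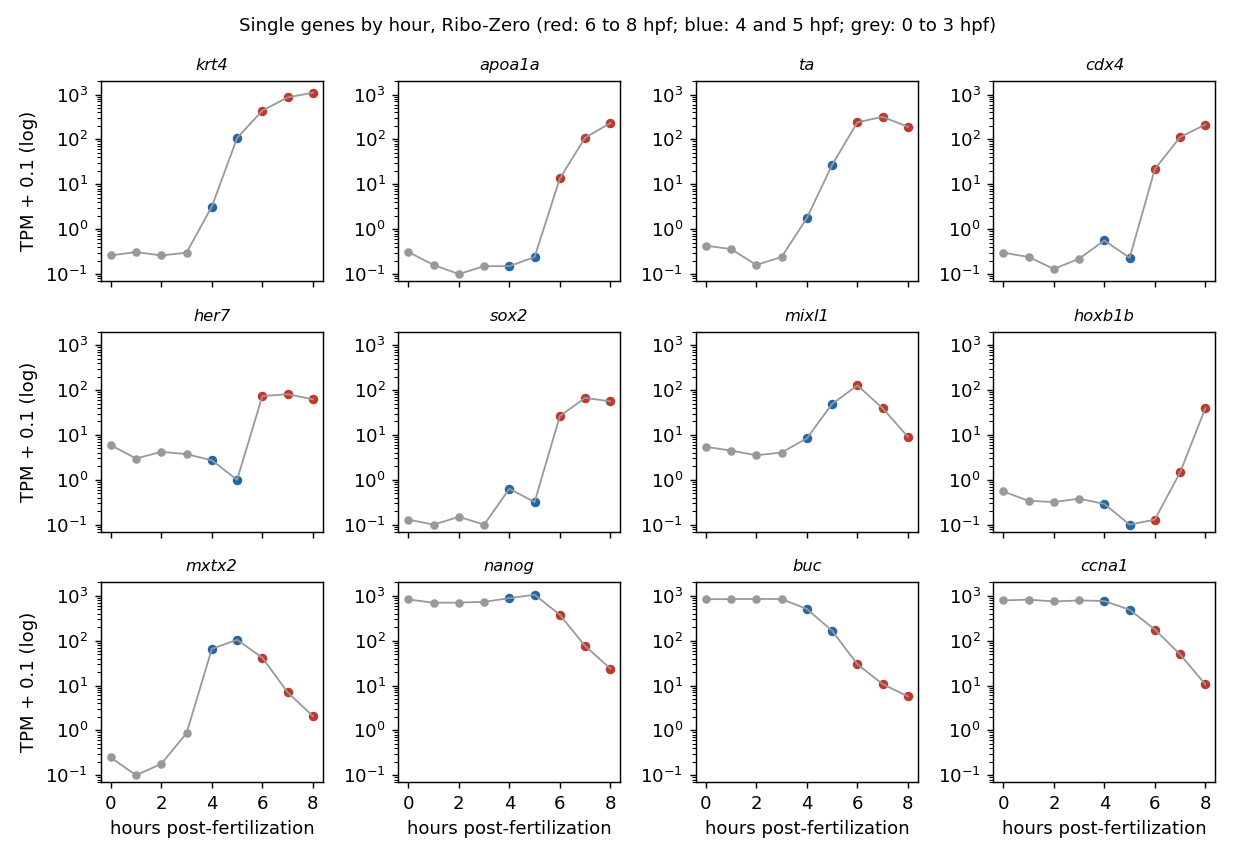
TPM + 0.1 on a log axis against hours post-fertilization for 12 genes of the Ribo-Zero profile, 1 library an hour. Red points are the gastrula libraries, blue points the blastula libraries and grey points 0 to 3 hpf. The genes krt4, apoa1a, ta, cdx4, her7 and sox2 were higher at 6 to 8 hpf, mixl1 peaked at 6 hpf, hoxb1b was high at 8 hpf alone, nanog, buc and ccna1 were lower at 6 to 8 hpf, and mxtx2 lay below its blastula levels without being called.

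The next list holds genes of the paraxial mesoderm and of the segmentation clock, the oscillator that later times the somites. Of 28 genes, 23 passed the filter, and 13 of these were called higher and 1 lower, with a median of 4.51. Of all genes, 11.9% were called higher. Members under 1 TPM in both blastula libraries, such as her1 and msgn1, passed the filter only through their gastrula levels and could hardly have been called lower. The clock gene her1 had 21.9, 34 and 28.8 TPM at 6, 7 and 8 hpf, against 0.64 and 0.29 TPM at 4 and 5 hpf (log2 difference 5.70 ± 0.47, adjusted p = 0.00842). The second clock gene, her7, had 73.3, 80.6 and 61.9 TPM, against 2.62 and 0.9 TPM (log2 difference 5.44 ± 0.46, adjusted p = 0.0089). The Notch ligand dld had 43, 81.8 and 79.5 TPM, against 1.71 and 2.11 TPM (log2 difference 5.03 ± 0.38, adjusted p = 0.00842). In these 3 genes every gastrula library was far above both blastula libraries. The related ligand dlc had 31.5, 57.5 and 59 TPM, against 3.81 and 1.02 TPM. Several presomitic regulators rose too. The mesogenin gene msgn1 had 7.15, 47.4 and 63.6 TPM, against 0.18 and 0.75 TPM. The segment boundary gene mespab had 20.2, 46.4 and 33.6 TPM, against 0.06 and 0.34 TPM. Its repressor partner ripply1 had 5.84, 21.8 and 31.1 TPM, against 0.23 and 0.31 TPM. The protocadherin pcdh8, an adhesion gene of the paraxial mesoderm, had 24.8, 57.6 and 43.7 TPM, against 0.33 and 1.89 TPM. Later members were just appearing and were not called. The muscle factor myf5 had 0.07, 2.77 and 6.49 TPM, against 0 and 0.03 TPM (adjusted p = 0.0892). The T-box gene tbx6 had 0, 0.63 and 6.27 TPM, against 0.1 and 0.03 TPM (adjusted p = 0.288). The gene called lower was her11, of the same Hairy family as her1, with 9.09, 4.49 and 10.6 TPM, against 25.3 and 35.8 TPM.

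Of the 27 tested Notch and Delta genes (38 in the files), 13 were called higher and 6 lower, where 11.9% and 29.2% of all genes were called in these directions. The receptor notch3 had 17.3, 27.9 and 43 TPM, against 0.52 and 4.41 TPM. The ubiquitin ligase mib1, which activates Delta ligands, had 52.9, 81.5 and 119 TPM, against 13.5 and 24.5 TPM. The feedback inhibitor nrarpb had 10.7, 33.1 and 46.9 TPM, against 1.23 and 1.75 TPM. All 3 rose. Those that fell included both genes of the Notch transcription factor. Of these rbpja had 24.8, 23.2 and 19.6 TPM, against 58.7 and 48.1 TPM and was not called after median-of-ratios scaling. The other, rbpjb, had 4.01, 2.17 and 3.06 TPM, against 21.4 and 12.1 TPM. The ligand gene jag2b had 4.47, 1.65 and 2.13 TPM, against 25.6 and 12.8 TPM. The receptor notch1a had 112, 119 and 128 TPM, against 70.5 and 88.6 TPM (adjusted p = 0.0635, under the threshold after scaling). The Hairy gene her5 came on in the blastula and then fell, with 11.5, 3.31 and 7.64 TPM, against 50 and 59.6 TPM (log2 difference -3.02 ± 0.53, adjusted p = 0.015) after 0.25 TPM at 0 hpf.

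Among BMP pathway and ventral genes, 15 of 29 tested genes (33 in the files) were called higher and 2 lower, with a median of 1.91. The ligand bmp4 had 16, 23 and 15.2 TPM at 6, 7 and 8 hpf, against 0.49 and 1.75 TPM at 4 and 5 hpf (adjusted p = 0.015). Its relatives were not called. The ligand bmp2b had 55.3, 57.3 and 52 TPM, against 32 and 54.6 TPM, with the 5 hpf level inside the range of the gastrula libraries (adjusted p = 0.292). The ligand bmp7a had 75.1, 73 and 44.5 TPM, against 6.86 and 39.5 TPM (adjusted p = 0.0612). Several feedback inhibitors of the pathway rose. The inhibitory Smad gene smad6b had 2.5, 8.63 and 14.1 TPM, against 0 and 0.08 TPM. Its relative smad6a had 4.77, 14.9 and 15.7 TPM, against 2.66 and 1.15 TPM. The third inhibitory Smad, smad7, had 10.8, 14.2 and 11.4 TPM, against 2.48 and 6.53 TPM. The decoy receptor gene bambia had 188, 144 and 107 TPM, against 17.1 and 75.6 TPM. All 4 were above both blastula libraries at every gastrula hour. The ventral secreted protein gene szl (Sizzled) had 16.3, 24.9 and 13.4 TPM, against 0.06 and 3.27 TPM. Ventral homeobox genes differed in how early they were on. The gene eve1 had 67, 103 and 67.4 TPM, against 0.04 and 1.19 TPM (log2 difference 7.51 ± 0.87, adjusted p = 0.015). The repressor gene ved had 494, 566 and 415 TPM, against 25.9 and 141 TPM (log2 difference 3.01 ± 0.64, adjusted p = 0.0171). Its relative vox had 139.7, 111 and 93.7 TPM, against 19.8 and 93.5 TPM and was not called (adjusted p = 0.0983). In the other direction, the signal transducer smad5, a maternal gene, had 71.9, 59.2 and 55.3 TPM, against 121 and 115 TPM (log2 difference -0.93 ± 0.23, adjusted p = 0.0218), and it was not called after median-of-ratios scaling. The homeobox gene evx1 was also lower, with 0.56, 0.03 and 0.05 TPM, against 5.23 and 3.24 TPM.

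FGF signalling genes rose at several levels of the pathway, with 11 of 18 tested genes (22 in the files) called higher, 1 lower and a median of 1.84. The ligand gene fgf8a had 47.4, 49.3 and 56.2 TPM at 6, 7 and 8 hpf, against 3.08 and 23.8 TPM at 4 and 5 hpf (log2 difference 2.55 ± 0.76, adjusted p = 0.0367). The ligand gene fgf24 had 8.33, 12 and 16.8 TPM, against 0.29 and 1.33 TPM. Other ligands peaked earlier. The gene fgf17 was highest at 5 hpf, with 28.1, 16.1 and 8.72 TPM, against 4.8 and 33.6 TPM (adjusted p = 0.776). The gene fgf3 was highest at 6 hpf, with 14.2, 10.7 and 3.56 TPM, against 0.61 and 7.04 TPM (adjusted p = 0.173). Among the receptors, fgfr4 had 54.6, 82.7 and 106 TPM, against 15 and 38.3 TPM. The receptor fgfr2 had 3.43, 4.96 and 8.69 TPM, against 0.03 and 0.57 TPM. A receptor already supplied by the egg, fgfr1a, had 46.7, 46.2 and 55.2 TPM, against 52.6 and 53.4 TPM (adjusted p = 0.71). Of the feedback inhibitors, which FGF itself induces, dusp6, the Sprouty genes and spred2a were called higher. The phosphatase gene dusp6 had 109, 131 and 131 TPM, against 23.4 and 32.7 TPM (log2 difference 2.15 ± 0.25, adjusted p = 0.015). Of the Sprouty genes, spry1 had 7.62, 8.49 and 12.9 TPM, against 0.08 and 1.38 TPM. Levels of spry2 were 21.6, 21.3 and 22.1 TPM, against 2.58 and 7.59 TPM. Those of spry4 were 9.86, 14.1 and 20.8 TPM, against 1.49 and 4.27 TPM. The Sprouty relative spred2a had 13, 14.3 and 18.9 TPM, against 2.1 and 8.19 TPM. Another feedback inhibitor, il17rd, had 27.2, 35.9 and 37.4 TPM, against 50.5 and 38.2 TPM (adjusted p = 0.256). The ETS factors that read out the signal did not move together. The gene etv4 rose, with 120.1, 165 and 154 TPM, against 26.2 and 62 TPM. The gene etv5a, with 183 TPM at 0 hpf, fell, with 24.9, 27.7 and 36 TPM, against 139 and 62.7 TPM. The closely related etv5b had 138, 172 and 155 TPM, against 100.3 and 101 TPM (adjusted p = 0.051, under the threshold after scaling).

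The Wnt list had 13 of 25 tested genes (31 in the files) called higher and 1 lower, with a median of 2.19. The ligand wnt5b, which guides cell movements, had 20.1, 41.1 and 52.6 TPM at 6, 7 and 8 hpf, against 0.12 and 1.33 TPM at 4 and 5 hpf (log2 difference 5.97 ± 0.83, adjusted p = 0.015). The ligand wnt3a had 2.53, 3.04 and 4.39 TPM, against 0.05 and 0.03 TPM. A second ligand of cell movements, wnt11, was highest at 6 hpf with 88.6, 63.7 and 38.7 TPM, against 17.9 and 46.1 TPM (adjusted p = 0.118). The symbol wnt8a stands for 2 genes of the files, known as a tandem pair that can share reads, so the split between them is uncertain. The more abundant (ENSDARG00000078507) had 30.6, 68.2 and 113 TPM, against 21.6 and 34.5 TPM (adjusted p = 0.114). The other (ENSDARG00000052910) had 0.21, 1.42 and 2.34 TPM, against 13.1 and 5.55 TPM, called lower at an adjusted p of 0.0419 and not called after scaling. Target genes did not move as one. The transcription factor gene sp5l had 14.8, 74.1 and 113 TPM, against 0.32 and 0.58 TPM (log2 difference 6.55 ± 0.85, adjusted p = 0.015). Its relative sp5a had 9.73, 16.7 and 30.9 TPM, against 0.44 and 2.31 TPM. The general target axin2, with 66.8 TPM at 0 hpf, had 28.1, 34.5 and 51 TPM, against 34 and 20.1 TPM (adjusted p = 0.298). The nuclear effector lef1, with 57.4 TPM at 0 hpf, had 21.5, 39.2 and 50.9 TPM, against 41.8 and 26.2 TPM (adjusted p = 0.884). Some receptor genes rose. The Frizzled gene fzd7a had 46.9, 141 and 220.0 TPM, against 12.8 and 37.7 TPM. The Frizzled gene fzd10 had 5.15, 11.1 and 14.7 TPM, against 0.67 and 0.91 TPM. The secreted inhibitor dkk1b was highest at 6 hpf, with 24.3, 14.6 and 9.77 TPM, against 2.37 and 5.54 TPM (log2 difference 2.03 ± 0.55, adjusted p = 0.0281).

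For the neural plate, 12 of 26 tested genes (42 in the files) were called higher and 2 lower, with a median of 1.75. The factor of neural progenitors sox2 had 26.2, 66.8 and 55.9 TPM at 6, 7 and 8 hpf, against 0.53 and 0.22 TPM at 4 and 5 hpf (log2 difference 6.68 ± 0.55, adjusted p = 0.00842). Its relatives were already present in the blastula and rose as well. The gene sox3 had 195, 163 and 105 TPM, against 47.7 and 73.4 TPM. The gene sox19a had 173, 214 and 187 TPM, against 34.4 and 87.2 TPM. The maternal member sox19b fell, with 25.1, 28 and 37.7 TPM, against 272 and 119.8 TPM (log2 difference -2.59 ± 0.39, adjusted p = 0.015). Some anterior genes rose. The homeobox gene hesx1 had 3.47, 20.7 and 51 TPM, against 0.55 and 2.13 TPM. The zinc finger gene zic2a had 23, 41.6 and 59 TPM, against 1.17 and 7 TPM. The homeobox gene otx1a had 12.4, 45 and 86.5 TPM, against 3.49 and 3.85 TPM. A few genes were highest at 8 hpf and were not called. The forebrain gene otx2 had 0.66, 8.4 and 46.8 TPM, against 1.42 and 1.2 TPM (adjusted p = 0.252). The forebrain gene fezf2 had 0.07, 0.34 and 16.8 TPM, against 1.46 and 0.83 TPM (adjusted p = 0.948). Of 31 Hox genes 4 passed the filter, and none was called higher. Among them hoxb1b, an early gene of the hindbrain, had 0.03, 1.37 and 39.5 TPM, against 0.19 and 0 TPM (adjusted p = 0.212). The maternal hoxb2a fell, with 0.39, 0.09 and 0.12 TPM, against 5.29 and 2.5 TPM.

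Retinoic acid later patterns the hindbrain and trunk. The gene of its synthesis enzyme, aldh1a2, had 8.1, 33 and 42.5 TPM, against 0.07 and 0.19 TPM (log2 difference 6.67 ± 0.79, adjusted p = 0.015). The gene of a retinoic acid binding protein, crabp2b, was listed with 15.4, 56.7 and 106 TPM, against 0.15 and 4.34 TPM. Levels of cyp26a1, of the degrading enzyme, were 31.1, 60.6 and 159 TPM, against 36 and 36.2 TPM (adjusted p = 0.263). On this list 4 of 15 tested genes (23 in the files) were called higher and 2 lower, with a median of 0.89.

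Of adhesion, matrix and migration genes, 19 of 46 tested (53 in the files) were called higher and 2 lower, with a median of 1.60. Cadherins, which join cells, moved unequally. The neural cadherin cdh2 had 29.8, 90 and 152 TPM at 6, 7 and 8 hpf, against 3.95 and 7.15 TPM at 4 and 5 hpf (log2 difference 3.78 ± 0.67, adjusted p = 0.015). The gene cdh6 had 22.6, 69.6 and 92.3 TPM, against 0.1 and 0.81 TPM (log2 difference 6.95 ± 0.83, adjusted p = 0.015). Levels of the epithelial cadherin cdh1, needed for epiboly, were 242, 197 and 148 TPM, against 278 and 266 TPM, lower in each gastrula library than in either blastula library but not called (adjusted p = 0.143). Of the chains of laminin, a basement membrane protein, lama1 had 21.9, 71.2 and 154 TPM, against 0.75 and 1.78 TPM. The chain gene lamb1a had 65.3, 118 and 150.0 TPM, against 1.5 and 17.6 TPM. The third chain gene, lamc1, was maternal and had 57, 80.7 and 109.9 TPM, against 49 and 51.5 TPM (adjusted p = 0.12, under the threshold after scaling). The fibronectin gene fn1a was highest at 8 hpf, with 13.3, 33.9 and 106 TPM, against 24.4 and 17.4 TPM (adjusted p = 0.41). Some ephrins, which keep tissues apart at boundaries, rose. The gene efnb2a had 25.8, 37.1 and 18.9 TPM, against 1.04 and 1.43 TPM. The gene efnb2b had 18.5, 73.1 and 80.1 TPM, against 0.83 and 2.1 TPM. In planar polarity, which orients cells during convergence, celsr1a had 9.06, 22.3 and 43.1 TPM, against 1.08 and 2.71 TPM. The glypican gpc4 had 54.2, 69.7 and 75.3 TPM, against 18.8 and 33.7 TPM. The core gene vangl2 had 84, 105 and 132 TPM, against 61 and 64.5 TPM (adjusted p = 0.0547, under the threshold after scaling). The chemokine receptor gene cxcr4a had 102, 78.2 and 51.6 TPM, against 35.2 and 95.5 TPM (adjusted p = 0.549). Its ligand gene cxcl12b had 2.86, 14.3 and 28.6 TPM, against 0.69 and 2.8 TPM (adjusted p = 0.0621).

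Members of the claudin family, which seal tight junctions, split into 3 called higher and 4 called lower among 11 tested. Among all genes 11.9% and 29.2% were called in these directions. Opposite to cldne, given above, stood a pair of maternal claudins. The gene cldng had 13.6, 4.2 and 2.38 TPM, against 272 and 89.8 TPM (log2 difference -4.89 ± 0.78, adjusted p = 0.015). The gene cldnd had 44.5, 11 and 4.82 TPM, against 519.9 and 189 TPM. After median-of-ratios scaling 4 claudins were called higher and 2 lower.

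**Figure D4:**
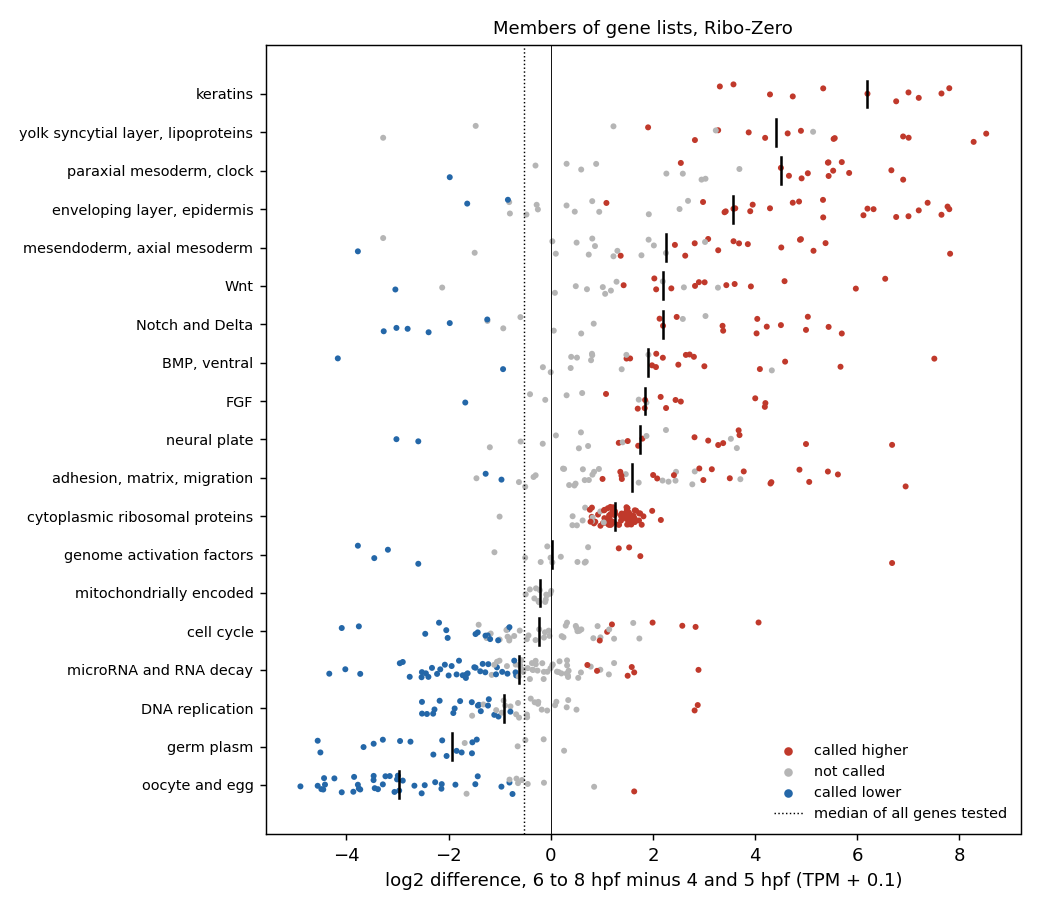
Log2 difference between the gastrula and blastula libraries (horizontal axis) for each tested member of 19 gene lists (rows), with red points called higher, blue points called lower and grey points not called at an adjusted p of 0.05. Black bars are list medians, from 6.20 for keratins to -2.98 for oocyte and egg factors, and the dotted line is the median of all genes tested, -0.52.

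The steepest falls were those of the miR-430 loci. Of 55 loci in the files, 33 passed the filter, and 30 of these were called lower and none higher. Of all genes, 29.2% were called lower. Loci near 0 in the gastrula libraries, such as those of dre-mir-430b-10 given below, passed the filter only through their blastula levels. Those could hardly have been called higher. Many copies are listed with the same values, so that the 33 loci have 8 distinct profiles and copies cannot be told apart. Counts of loci here are thus counts of copies. By profile, those of dre-mir-430a-11 and dre-mir-430b-18 were not called, and each of the others was called lower. The profile of dre-mir-430b-1, shared by 3 loci, had 2.85, 0 and 0 TPM at 6, 7 and 8 hpf, against 534 and 194 TPM at 4 and 5 hpf (log2 difference -10.03 ± 1.48, adjusted p = 0.015). That of dre-mir-430a-4, shared by 5 loci, had 61.1, 3.07 and 0 TPM, against 473 and 282 TPM (adjusted p = 0.0464). The profile of dre-mir-430b-10, shared by 9 loci, was listed at 0 at 6, 7 and 8 hpf, against 81.7 and 26.8 TPM. As a group the loci held 0.0345% and 0.0023% of the TPM at 6 and 7 hpf and were listed at 0 at 8 hpf, against 0.509% and 0.239% at 4 and 5 hpf. These are levels of transcripts read at the loci, and the level of the mature microRNA was not measured. They were listed at 0 at 0, 1 and 2 hpf and held 0.00737% at 3 hpf, so they were first listed above 0 at 3 hpf. After median-of-ratios scaling 22 loci, with copies counted singly, were called lower. The 12 most negative differences among all genes of at least 10 TPM were copies of 2 of these profiles.

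Outside miR-430, the largest falls were chosen after their values had been seen. One U1 small nuclear RNA locus, out of 382 with that name, led them, with 0, 0 and 11.3 TPM, against 29.6 and 103 TPM, but the copies share sequence and the level of a single one is uncertain. The next was BX927193.1, with 16.6, 1.35 and 0.77 TPM at 6, 7 and 8 hpf, against 169.6 and 156 TPM at 4 and 5 hpf (log2 difference -5.88 ± 1.16, adjusted p = 0.016), a gene listed at 0 at 0 hpf. Among the 5 libraries compared it was thus highest at 4 and 5 hpf. Those that followed were maternal. The uncharacterized gene si:rp71-45k5.2 had 6.08, 0.93 and 0.28 TPM, against 76.3 and 65.1 TPM. The tripartite motif gene trim35-29 had 1.95, 0.84 and 0.47 TPM, against 64.7 and 21.2 TPM. The actin filament associated gene afap1l1a had 2.35, 0.43 and 0.51 TPM, against 61.5 and 17.4 TPM. In each the 6 hpf level was already below both blastula levels. The anti-proliferative gene btg4, known in mice as the adaptor that brings the deadenylase to maternal mRNAs, had 3.46, 1.67 and 1.5 TPM, against 129.5 and 32.1 TPM (log2 difference -4.90 ± 0.67, adjusted p = 0.015). The elongin A relative tceb3l had 5.94, 1.65 and 1.27 TPM, against 118 and 42 TPM. The cryptochrome gene cry1ab had 3.29, 0.75 and 0.61 TPM, against 55.3 and 23.5 TPM.

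The genes of the germ plasm, the maternal material inherited by the germ line, were mostly lower. All 20 genes in the files passed the filter, 15 were called lower and none higher, with a median of -1.94, where 29.2% of all genes were called lower. Among maternal genes 39.9% were called lower, with a median of -0.94. Median-of-ratios scaling left 10 called lower. The organizer of the germ plasm, buc, had 29.6, 10.7 and 5.63 TPM at 6, 7 and 8 hpf, against 507 and 166 TPM at 4 and 5 hpf (log2 difference -4.56 ± 0.75, adjusted p = 0.015). The translational regulator dazl had 17.7, 12.9 and 6.95 TPM, against 118 and 52.9 TPM (log2 difference -2.75 ± 0.50, adjusted p = 0.0151). The Tudor gene tdrd1 had 6.2, 1.2 and 0.7 TPM, against 64.3 and 28.1 TPM. A second Tudor gene, tdrd7a, had 10.7, 5.32 and 4.18 TPM, against 66.7 and 35.5 TPM. Piwi genes, which silence transposons in the germ line, were also lower, though neither call held after scaling. The gene piwil1 had 17.4, 8.85 and 4.71 TPM, against 36.7 and 25.2 TPM. The gene piwil2 had 17.1, 8.33 and 3.37 TPM, against 52.9 and 28.7 TPM. The germ cell gene nanos3 had 13.2, 9.92 and 9.64 TPM, against 40.1 and 25 TPM. The RNA-binding protein gene dnd1 had 6.28, 4.62 and 3.17 TPM, against 29.6 and 13.6 TPM. Other members were not called. The vasa gene ddx4 had 39, 32.7 and 24.6 TPM, against 50.1 and 48.9 TPM (adjusted p = 0.0992). The receptor gene cxcr4b, which migrating germ cells and somatic cells use, had 97.6, 89.9 and 29.3 TPM, against 39.9 and 70.7 TPM (adjusted p = 0.713). The summed share of the list was 0.0839%, 0.0508% and 0.0353% at 6, 7 and 8 hpf, against 0.319% and 0.182% at 4 and 5 hpf.

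Oocyte and egg factors gave the most negative median of the lists outside miR-430, -2.98, with 37 of 46 tested genes called lower (28 after scaling) and 1 higher. For comparison, 29.2% of all genes and 39.9% of maternal genes were called lower, and the median of maternal genes was -0.94. The meiotic kinase gene mos had 4.11, 1.37 and 0.65 TPM at 6, 7 and 8 hpf, against 41.8 and 14 TPM at 4 and 5 hpf (log2 difference -3.87 ± 0.83, adjusted p = 0.0172). The oocyte growth factor gene gdf9 had 4.08, 1.14 and 0.65 TPM, against 22.5 and 13.3 TPM. Its relative bmp15 had 2.54, 0.78 and 0.69 TPM, against 45.5 and 16.5 TPM. The maternal-effect gene zar1 had 12.6, 5.87 and 4.21 TPM, against 27.6 and 22.7 TPM, and zar1l was lower too. Levels of zar1l were 11.3, 7.25 and 4.68 TPM, against 115 and 41.9 TPM. Some factors that handle RNA in the egg were lower as well. The poly(A)-binding protein gene pabpc1l had 24.1, 8.8 and 3.55 TPM, against 103 and 52.5 TPM. A nuclear relative, pabpn1l, had 26.1, 8.65 and 3.92 TPM, against 109 and 68.4 TPM. The regulator of cytoplasmic polyadenylation cpeb1b had 9.1, 4.42 and 3.17 TPM, against 53.4 and 27.4 TPM. The histone mRNA binding protein gene slbp2 had 8.64, 3.38 and 1.24 TPM, against 133 and 41.8 TPM. All 4 were highest at 4 hpf. The maternal Vg1 ligand gene gdf3 had 130.4, 52.5 and 21.9 TPM, against 331 and 262 TPM. Among egg coat genes, zp3b had 22.8, 14.8 and 11.8 TPM, against 54.5 and 36.1 TPM. The gene zp2.5 had 47.6, 43.6 and 37.5 TPM, against 79.8 and 64.7 TPM. The gene zp2.3 had 23.3, 22.7 and 19.5 TPM, against 33 and 26.9 TPM and was not called (adjusted p = 0.198). After scaling the calls of zar1, gdf3, zp3b and zp2.5 were lost. The exception of the list was ybx1, of an RNA-binding protein that the embryo also transcribes, with 1079, 1678 and 2122 TPM, against 377 and 675 TPM (log2 difference 1.63 ± 0.37, adjusted p = 0.0187).

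The cell cycle list stayed near the median of all genes. Of 55 tested genes (65 in the files) 7 were called higher and 14 lower, with a median of -0.23 that became 0.32 after scaling, when 12 were higher and 5 lower. Among all genes 11.9% were called higher and 29.2% lower. Egg forms and somatic forms of a family are given side by side. The egg cyclin gene ccna1 had 177, 49.2 and 10.5 TPM at 6, 7 and 8 hpf, against 764 and 488 TPM at 4 and 5 hpf (log2 difference -3.76 ± 1.03, adjusted p = 0.0297, not called after scaling). Its somatic relative ccna2 had 261, 190.1 and 105 TPM, against 308 and 301 TPM (adjusted p = 0.115). The egg kinase gene wee2 had 44, 9.5 and 2.92 TPM, against 227 and 151 TPM (log2 difference -4.09 ± 0.99, adjusted p = 0.0219). The somatic wee1 had 71.6, 79.6 and 65.3 TPM, against 21.5 and 62.2 TPM (adjusted p = 0.108). Among G1 cyclins, ccne2 was called higher, with 105, 109.7 and 71.4 TPM, against 5.81 and 41.7 TPM. The maternal ccne1 had 232, 147 and 72.5 TPM, against 310.2 and 302 TPM (adjusted p = 0.0735). The gene ccnd1 had 360.3, 403 and 347 TPM, against 49.6 and 248 TPM (adjusted p = 0.0551, under the threshold after scaling). Of the mitotic cyclins, ccnb1 and ccnb2 were called lower and ccnb3 higher. The gene ccnb1 had 357, 326 and 217 TPM, against 927 and 675 TPM and was not called after scaling. The gene ccnb2 had 121, 82.9 and 51.5 TPM, against 575 and 339 TPM. Levels of ccnb3 were 66.4, 92.7 and 51.9 TPM, against 27.8 and 36.2 TPM. The checkpoint kinase gene chek1, which slows the cycle after the mid-blastula transition, had 5.91, 6.13 and 8.34 TPM, against 39.2 and 19.3 TPM. The inhibitor gene cdkn1ba, a p27 relative, had 3.93, 10.3 and 13.3 TPM, against 0.24 and 0.61 TPM (log2 difference 4.07 ± 0.70, adjusted p = 0.015).

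Of 43 DNA replication genes, all tested, 18 were called lower and 2 higher, with a median of -0.92, and after scaling 7 lower and 4 higher. Among all genes 29.2% were called lower and 11.9% higher. Among maternal genes 39.9% were called lower, with a median of -0.94, so the list lay close to that class. The licensing inhibitor gene gmnn had 307, 155 and 131 TPM, against 1038 and 796 TPM (log2 difference -2.30 ± 0.38, adjusted p = 0.015). Of the origin recognition complex, orc1 had 15.8, 9.27 and 10.2 TPM, against 94.7 and 46 TPM. The subunit gene orc6 had 34.7, 28.1 and 29.3 TPM, against 189.6 and 116 TPM. Of the MCM subunits of the replicative helicase (mcm2 to mcm7), the pair that was called rose. For its other listed parts the mean TPM of the gastrula libraries over that of the blastula libraries differed. It was 0.184 in gins2, 0.352 in cdc45, 0.429 in gins1, 0.478 in gins3 and 1.3 in gins4. The gene mcm3 had 74.9, 113 and 129 TPM, against 5.88 and 32.8 TPM (log2 difference 2.88 ± 0.68, adjusted p = 0.0203). The gene mcm6 had 59.4, 91.2 and 116 TPM, against 5.44 and 26.7 TPM. Outside the list, mcm3l, a maternal relative of mcm3, was lower, with 12.7, 4.38 and 1.98 TPM, against 136 and 63.3 TPM. The symbol rrm2, also outside the list and of a ribonucleotide reductase subunit, stands for 2 genes that moved in opposite directions. The more abundant (ENSDARG00000020711) had 516, 461 and 273 TPM, against 901 and 702 TPM, called lower on the TPM scale and not called after scaling. The other (ENSDARG00000078069) had 151, 229 and 200.0 TPM, against 77.3 and 124 TPM and was called higher (adjusted p = 0.0388).

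Factors that activate the genome did not share a direction. Of 19 tested genes 4 were called higher and 4 lower, with a median of 0.03 (7 and 3 after scaling). The maternal factor nanog had 377, 75.8 and 23.8 TPM at 6, 7 and 8 hpf, against 885 and 1056 TPM at 4 and 5 hpf (log2 difference -3.46 ± 1.00, adjusted p = 0.034), and both blastula libraries were above the 3 gastrula libraries. The call was lost after scaling. Its partner pou5f3 had 675, 725 and 503 TPM, against 321 and 444 TPM, higher in each gastrula library than in either blastula library (adjusted p = 0.0549, under the threshold after scaling). Of the Sox genes that work with them, the maternal sox19b fell and sox2 and sox3 rose, as given above. The acetyltransferase gene ep300b had 20.6, 27.4 and 43.2 TPM, against 29.6 and 28.6 TPM (adjusted p = 0.993). The histone demethylase gene kdm4c was called lower, with 3.37, 2.16 and 2.04 TPM, against 34 and 15.9 TPM.

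The RNA decay and microRNA machinery is supplied by the egg too. All 84 listed genes passed the filter, and 35 were called lower and 6 higher, with a median of -0.62, close to the -0.52 of all genes. For comparison, 29.2% of all genes and 39.9% of maternal genes were called lower, and 11.9% of all genes higher. After scaling 21 were lower and 15 higher with a median of -0.08. The poly(A)-specific ribonuclease gene parn had 59.8, 35.3 and 31.5 TPM at 6, 7 and 8 hpf, against 276 and 149.7 TPM at 4 and 5 hpf (log2 difference -2.33 ± 0.38, adjusted p = 0.015). In the microRNA pathway, dicer1, which cuts precursors, had 7.46, 5.59 and 11.1 TPM, against 29.5 and 20.6 TPM and was not called after scaling. The Argonaute gene ago1 had 4.09, 4.11 and 6.33 TPM, against 26.1 and 15.8 TPM. The Argonaute gene ago3b had 9.52, 4.99 and 4.8 TPM, against 44.6 and 28.4 TPM. Levels of dgcr8, needed to process primary microRNAs, were 35.2, 21.5 and 19.6 TPM, against 93.3 and 65.1 TPM. The decapping helicase gene ddx6 had 12, 11.2 and 12.5 TPM, against 46.1 and 33.9 TPM. The m6A reader gene ythdf3 had 11.7, 10.4 and 13 TPM, against 55.6 and 39.4 TPM. The gene cth1, of a zinc finger protein that binds AU-rich RNA, had 60.1, 23.3 and 6.9 TPM, against 426 and 190.2 TPM. All of these were called lower. Of the catalytic subunits of the CCR4-NOT deadenylase, cnot7 had 1.04, 1.46 and 2.25 TPM, against 14 and 5.34 TPM. The gene cnot8 had 115, 58.6 and 33.8 TPM, against 201 and 178 TPM and was not called after scaling. A few members rose. The gene pum2, of an RNA-binding repressor, had 48.4, 56.8 and 75.8 TPM, against 30.7 and 32.5 TPM. The kinase gene smg1, of nonsense-mediated decay, had 22.6, 30.4 and 45.1 TPM, against 8.6 and 12.6 TPM.

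Of 80 cytoplasmic ribosomal protein genes in the files 79 passed the filter, and 69 were called higher and none lower, with a median of 1.26 and 78 called higher after scaling. The largest difference was that of rpl36, with 81.4, 118 and 167 TPM at 6, 7 and 8 hpf, against 23.3 and 29.6 TPM at 4 and 5 hpf (log2 difference 2.16 ± 0.34, adjusted p = 0.015). Next was rpl35a, with 121, 214 and 282 TPM, against 40.1 and 59.7 TPM. At the other end, rpl12 had 519, 636 and 720.3 TPM, against 463 and 460.3 TPM (adjusted p = 0.14, under the threshold after scaling). A pair of genes carries the symbol rpl37, and the abundant one (ENSDARG00000034291) was called higher, with 145, 196 and 310.2 TPM, against 57.1 and 88.2 TPM. The other (ENSDARG00000076360), the lowest difference of the list, had 8.27, 5.04 and 3.58 TPM, against 11.2 and 10.3 TPM (adjusted p = 0.111). The share of the list was 1.62%, 2.33% and 3.02% of the TPM at 6, 7 and 8 hpf, against 0.936% and 1.03% at 4 and 5 hpf.

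Other lists of the general machinery had no common direction. Their counts stand beside 11.9% higher and 29.2% lower among all genes. Mitochondrial ribosomal protein genes had 7 higher and 16 lower of 73, with a median of -0.30 that turned to 0.24 after scaling. Initiation factors had 10 higher and 12 lower of 62, with a median of 0.08 and 0.62 after scaling. Proteasome subunits had 4 higher and 1 lower of 39, with a median of 0.18 and 0.72 after scaling. The 13 mitochondrially encoded genes with the prefix mt- had no call by limma, with a median of -0.21 that turned to 0.33 after scaling. Among them mt-co1, of a cytochrome oxidase subunit, had 4111, 4787 and 4729 TPM, against 4350.4 and 4659.6 TPM, and its groups overlapped.

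**Figure D5:**
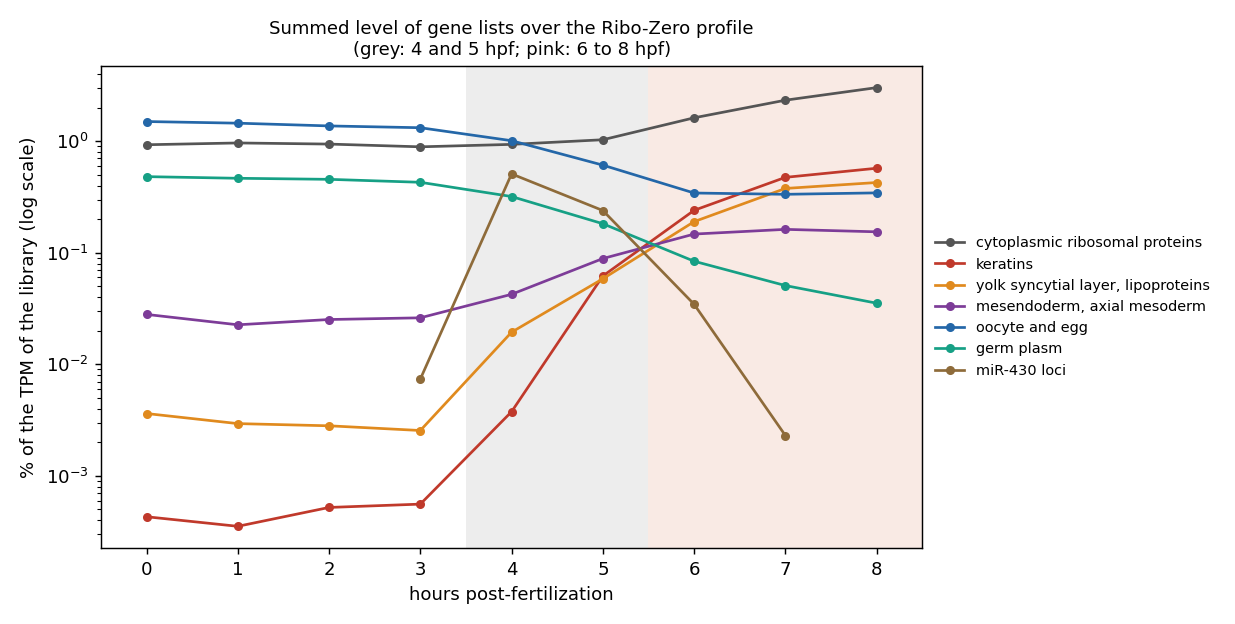
Summed level of 7 gene lists as a percentage of all TPM of a library (log axis) against hours post-fertilization in the Ribo-Zero profile, with 4 and 5 hpf shaded grey and 6 to 8 hpf pink. A point is 1 library and a sum of 0 is not drawn. Keratins reached 0.572% at 8 hpf, while the miR-430 loci peaked at 0.509% at 4 hpf and germ plasm genes fell to 0.0353% at 8 hpf.

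The called genes with the highest level were mostly parts of the general machinery of the cell. The nuclear RNA rn7sk, which holds the elongation factor P-TEFb inactive, had 3772, 5637 and 8991 TPM at 6, 7 and 8 hpf, against 289 and 1013 TPM at 4 and 5 hpf (log2 difference 3.41 ± 0.57, adjusted p = 0.015). The translation elongation factor gene eef1a1l2 had 3637, 6058 and 6975 TPM, against 1081 and 1949 TPM. The chromatin protein gene hmga1a had 2198, 3672 and 4727 TPM, against 744 and 1256 TPM. The chaperone gene hspa8 had 3643, 4151 and 4116 TPM, against 2139 and 2517 TPM. Each of these 4 rose at every hour from 4 to 7 hpf. Among the most abundant that were lower, the egg linker histone gene h1m had 289, 92.8 and 33.4 TPM, against 1376 and 829.5 TPM (log2 difference -3.47 ± 0.81, adjusted p = 0.02). The histone chaperone gene nasp had 257, 281 and 258 TPM, against 893 and 429 TPM and was not called after scaling. A pair of Metazoa_SRP loci was also called higher. Their family held 38.5%, 29.6% and 30.7% of the TPM at 6, 7 and 8 hpf, against 34.0% and 32.0% at 4 and 5 hpf, so the family overlapped between the groups.

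A course that rises and falls inside the window is missed by a comparison of 2 groups. By a rule of at least 4 times the level at both 4 and 8 hpf, the transient genes of highest level were CT583728.19, CT583728.1, CT583728.7, CT583728.11 and a U1 locus. The CT583728 loci were high at 7 hpf alone, where CT583728.19 had 16398 TPM, against 4.26 TPM at 6 hpf. Among the next were mixl1, as above, and plekhf1, of an endosomal protein, which also peaked at 6 hpf, with 42.1, 24.9 and 10.1 TPM at 6, 7 and 8 hpf, against 1.41 and 25.6 TPM at 4 and 5 hpf. In both the groups overlapped and there was no call.

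The same hours were next compared in the poly(A) libraries. There 1891 of 16510 genes (11.5%) were called higher and 4823 (29.2%) lower, with a median of -0.56. Without the 4 hpf library 5 were higher and 0 lower, and without the 7 hpf library no gene was called by limma. Of the 1855 genes called higher in total RNA, 1815 were tested in poly(A) RNA, and 1349 of these were called higher and 0 lower, which is 72.7% of the total RNA calls and 71.3% of the poly(A) calls. Of the 4569 called lower, 4492 were tested, and 3649 were called lower and 1 higher, which is 79.9% of the total RNA calls and 75.7% of the poly(A) calls. The differences over the 15224 genes tested in both correlated at r = 0.937 across genes. This is a description, since genes are not replicates and both profiles follow the same hours. For krt4 the poly(A) difference was 5.20 (adjusted p = 0.0246). For her1 it was 7.39 (adjusted p = 0.0126). For rpl36 it was 2.25 (adjusted p = 0.0151). Of the genes that were lower, buc had -6.22 (adjusted p = 0.0151). All 4 had the sign found in total RNA. By list, 13 of 13 tested keratin genes and 76 of 80 ribosomal protein genes were called higher in poly(A) RNA, and 14 of 20 germ plasm genes were called lower. Of the miR-430 loci 9 were tested there, and none was called in either direction, with a median difference of -5.92.

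The difference between both library types was tested itself, as an interaction. By limma, without pairing the hours, 0 of 15224 genes passed (0.0%), with 418 at an unadjusted p under 0.05. Values are therefore given side by side. The spindle checkpoint gene bub3 had 34.4, 52.9 and 59.8 TPM, against 58.2 and 41.2 TPM in total RNA, a difference of -0.04 ± 0.33, and its poly(A) difference was 2.95 (adjusted p = 0.0163). The kinesin gene cenpe had 77.9, 126 and 169 TPM, against 201 and 121 TPM in total RNA, a difference of -0.40 ± 0.38, and its poly(A) difference was 2.57 (adjusted p = 0.0154). In both genes the groups overlapped in total RNA. The other genes at either end of this ranking were CT583728, U1 and small nucleolar RNA loci and CR391923.1. Among genes with the smallest p, chosen after the values were seen, slc7a6os had a difference of -2.14 ± 0.36 in total RNA and 0.28 in poly(A) RNA. The cyclophilin gene ppiab had -1.32 ± 0.39 in total RNA and 1.28 in poly(A) RNA. The fit without pairing keeps the change between hours in its spread. With the hour as a block shared by both library types, 5 loci passed, and slc7a6os was one of them. In that limma fit 3061 of the 15224 genes had an unadjusted p under 0.05. The few genes passing therefore do not show that both library types changed alike.

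Alpha-amanitin, a toxin that blocks RNA polymerase II and so stops zygotic transcription, had been injected at the 1-cell stage at 200 ng/µl. In those embryos the 4 libraries of 6 to 7.5 hpf were set against the 4 of 4 to 5.5 hpf, all poly(A)-selected, so their levels are not compared with the Ribo-Zero levels. Here 582 of 13747 genes (4.23%) were called higher and 2846 (20.7%) lower. With the whole hours alone, 2 libraries against 2, 0 were higher and 1 lower. Leaving out the library of 4, 4.5, 5, 6.5, 7 or 7.5 hpf in turn left 0 genes called in either direction by limma, so the adjusted calls rest on each of those libraries. In these limma fits 822 to 1845 genes were higher and 3327 to 4178 lower at an unadjusted p under 0.05. With all libraries these counts were 1608 and 4386. Of the 1855 genes called higher in untreated total RNA 796 passed the filter in injected embryos, and 67 of these were called higher and 91 lower. Of 4569 that fell, 4446 were tested, and 1315 (29.6% of those tested) were called lower and 129 higher. Genes called lower in untreated embryos are given with their own difference in injected embryos. For the germ plasm gene dazl it was -0.06 (adjusted p = 0.799). For tdrd7a it was -0.02 (adjusted p = 0.903). For buc it was -0.54 (adjusted p = 0.0487). The first pair was thus not called and buc was called lower. The replication gene gmnn had -2.15 (adjusted p = 0.0246). The cyclin gene ccnb1 had -1.55 (adjusted p = 0.0267). The claudin gene cldng had -2.52 (adjusted p = 0.0302). These 3 were called lower in injected embryos as well. The difference of eomesa was 0.18 (adjusted p = 0.376). That of ccna1 was 0.31 (adjusted p = 0.122). By list, 5 of 20 germ plasm genes were called lower and 3 higher, with a median of 0.03, and of 45 oocyte and egg factors 17 were called lower and 1 higher, with a median of -0.41. Of 80 ribosomal protein genes tested in injected embryos none was called in either direction by limma, with a median of 0.10. A single keratin gene passed the filter there, krt8, with a difference of 0.21 (adjusted p = 0.468). The change in untreated against that in injected embryos was not tested as a difference, because hours and library types are not matched.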

How the data were processed

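Zebrafish embryos were collected in sets of 25 for each hour, and RNA-seq libraries were made after ribosomal depletion (0 to 8 hpf) or poly(A) selection. The authors demultiplexed with bcl2fastq 2.18, aligned with STAR 2.7.3a to danRer11 and quantified genes with RSEM, and they deposited TPM values, scaled within each library. Read depth cannot be recovered from TPM, so no counting interval is given, and a value listed at 0 is not shown to be absent. The labels mention a biological replicate, but each hour has 1 column.

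Genes averaging 1 TPM or more were tested on log2(TPM + 0.1) with limma 3.58.1 (R 4.3.3, trend), 3 against 2 libraries, with Benjamini-Hochberg adjustment over all genes tested. Fold changes on this scale understate those of low genes. Tables and figures were made with Python 3.11.15, pandas 2.3.3, numpy 2.4.6 and matplotlib 3.10.9. The 28 gene lists and the members were chosen with earlier results of these data known, and 23 listed symbols were not found. Genes were named by rule: the 12 largest differences in each direction among genes averaging 10 TPM or more, the 6 of highest level, the largest called members of each list, the 6 largest interactions in each direction and 5 transient genes. Further list members were named for their role after their values were seen. Symbols that share only a list's prefix were left out after values were seen.

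In data simulated on the total RNA comparison, 56% of genes changed by 4 log2 units were recovered and 0% of those changed by 1 or 2. In the poly(A) comparison it was 63% at 4 log2 units and 0% at 1 or 2. In the alpha-amanitin comparison 40%, 83% and 99% were recovered at 1, 2 and 4 log2 units. Of the simulated calls at 4 log2 units, 3.45% were false in the total RNA and 2.33% in the poly(A) comparison. In the alpha-amanitin comparison 11.1%, 4.05% and 2.94% were false at 1, 2 and 4 log2 units. Each simulation changed 200 genes and drew independent errors. In the data 6424 genes were called in total RNA, and the spread holds the change between hours. The simulated shares therefore do not carry over to the calls made here. The alternatives were other pseudocounts (0.01 and 1), filters and scalings, hour as a number, and each library left out. One scaling, without the Metazoa_SRP and CT583728 loci, was chosen after seeing the data. A planned description of promoter motifs was not run, and sequences were not used here.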

Additional observations from a re-analysis of the deposited data

Results flagged for a closer look

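Among the genes whose values in alpha-amanitin embryos are given above, a single library lay far from the other 3 of its group in 2 cases, by a test of the gap that chance passes in about 1 in 20 groups. The level of ccna1 was 1178 TPM at 4 hpf, while the other 3 libraries of 4.5 to 5.5 hpf lay between 1664.5 and 1709 TPM. The level of krt8 was 6.61 TPM at 7.5 hpf, while the other 3 libraries of 6 to 7 hpf lay between 9.62 and 9.85 TPM. Several genes and groups were looked at, and chance alone can give such a gap. The 4 hpf library is the first hour of its group and the 7.5 hpf library the last. The test cannot separate a change between hours from an outlying library. Groups of 2 or 3 libraries were too small for this test.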

How the results depend on the processing

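In total RNA the count of genes called higher was 1855 and moved to 2932 with median-of-ratios scaling and to 2827 with hour as a number, and leaving out 1 library gave 0 to 2410. The count called lower was 4569 and moved to 2544 with scaling, and leaving out 1 library gave 0 to 5167. In poly(A) RNA leaving out 1 library gave 0 to 2907 higher and 0 to 5103 lower. In alpha-amanitin embryos the whole hours alone gave 0 higher and 1 lower, and leaving out 1 library gave 0 to 1024 higher and 0 to 4664 lower. For the difference between library types, hour as a replicate block moved the count to 5 of 15224 genes, with hours paired by the labels, and leaving out 1 hour gave 0 to 1. The other alternatives (pseudocount, filter, no trend, other scalings and thresholds of the early classes) kept these counts within 1.5 times. The causes were not tested. Leaving out any 1 library also removes a residual degree of freedom.

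Of the 230 genes named, 177 were called. Without the 4 hpf or the 7 hpf library 177 of these lost the call, with scaling 20 did, without a trend 30, with hour as a number 14, and with pseudocount 1 none, and no called gene changed direction under these alternatives. Of the genes not called, the log2 difference changed sign with scaling for bub3 (0.50), cdh1 (0.04), cenpe (0.14), ep300b (0.54), fezf2 (0.31), fgfr1a (0.43), grhl3 (0.26), il17rd (0.13), klf17 (0.29) and zp2.3 (0.09). It changed sign with hour as a number for bub3 (0.04), cxcr4b (-0.05), ep300b (0.10), fezf2 (0.58), foxh1 (-0.01) and mixl1 (-0.01), with pseudocount 1 for fezf2 (0.47), and without the Metazoa_SRP and CT583728 loci for ep300b (0.01). Leaving out 1 library gave ranges that cross 0 for bub3 (-0.29 to 0.21), cxcr4a (-0.36 to 1.08), cxcr4b (-0.15 to 0.82), ep300b (-0.29 to 0.24), fezf2 (-2.14 to 1.18), fgf17 (-1.08 to 1.70), foxh1 (-0.07 to 0.15), grhl3 (-0.82 to 0.27), lef1 (-0.26 to 0.43), mixl1 (-0.46 to 2.09), mt-co1 (-0.04 to 0.08), mxtx1 (-0.10 to 2.55), noto (-0.51 to 2.00), plekhf1 (-0.22 to 3.87) and tdgf1 (-0.45 to 0.65). With 1 library an hour and TPM alone, neither depth nor the error of a library can be separated from the change between hours.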
